A study of Mus musculus with 12 samples.

Results

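mmu-miR-122-5p, mmu-miR-192-5p and mmu-miR-194-5p, written below without the species prefix, are mature microRNAs (miRNAs) best known from liver and intestine. They were picked by name from the 1978 annotated mouse miRNAs of a count table, so 3 of 1978 are described here. The rule sets no threshold on a measured value, but the names were chosen with earlier results of these data known. The table holds small RNA from extracellular vesicles, membrane particles shed by cells, collected from cultured mouse bone marrow mesenchymal stem cells. These stromal cells came, per the labels, from C57BL/6 mice kept specific-pathogen-free. There were 12 libraries in 4 groups of 3, titled DZ, aFM, NY and PLL, with replicates A, B and C in each. The series text gives 48 h of exposure to ESPs, HCF or pLL at 2 µg/ml. All groups share the strain, the cells and a treatment label that reads only as antigen intervention. The labels do not spell out DZ, aFM or NY and name no unstimulated group. Nothing in them states that the replicates of a group came from different cultures or animals, so a p-value here reflects library-to-library spread that may be only technical.

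miRNAs are short RNAs that guide Argonaute proteins to messenger RNAs through their seed, bases 2 to 8, and lower the output of those messages. miR-122 is the dominant miRNA of hepatocytes, where it maintains cholesterol and lipid metabolism, and it also circulates in blood. miR-192 and miR-194 are processed from shared transcripts in intestinal epithelium, liver and kidney and respond to p53, and miR-215 carries the seed of miR-192.

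The mature sequences below, from RefSeq (GRCm38.p6), show which of these RNAs a read can tell apart. The sequence table matched 2 of the 3 miRNAs, miR-192-5p and miR-194-5p. The seed is in capitals, and all run 5′ to 3′.
miR-192-5p: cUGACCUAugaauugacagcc
miR-215-5p: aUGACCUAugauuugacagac
miR-194-5p: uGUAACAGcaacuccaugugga
miR-194-1-3p: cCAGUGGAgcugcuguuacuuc
miR-194-2-3p: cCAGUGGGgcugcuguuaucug
miR-192-5p and miR-215-5p are both 21 bases long and share 18 positions. They differ, counted from the 5′ end with miR-192-5p first, by C1A, A12U and C20A, all outside the seed. No other mature miRNA in that table has the seed of miR-192-5p, and none has that of miR-194-5p. miR-194-5p is the same 22 bases from both of its hairpins, so its reads do not tell which gene made them. The opposite arms do: miR-194-1-3p and miR-194-2-3p differ by A8G, C19U, U20C and C22G.

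In GRCm38.p6 the hairpins form 2 pairs. Mir194-2 lies at chr19:6264643-6264728 and Mir192 at chr19:6264844-6264932, both on the plus strand, 115 bases apart and within no other annotated gene. Mir194-1 lies at chr1:185313319-185313385 and Mir215 at chr1:185313581-185313692, both on the plus strand and 195 bases apart. Both of the latter lie inside the noncoding gene 2010103J01Rik, where Mir194-1 is intronic and Mir215 overlaps an exon, and antisense to an intron of Iars2.

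Libraries held 68647 to 214303 counts, of which annotated miRNAs took 17607 to 60436. The rest fell on predicted loci without a gene name. Levels are given as CPM, annotated counts scaled to a common library size with TMM factors, so each is relative to the other annotated miRNAs. A count of 0 allows up to 3 counts, which is 67.9 to 183 CPM depending on the library. The 6 mesenchymal miRNAs listed as markers of the labelled cells all had counts, at very unlike levels. miR-143-3p, at 28940 to 87066 CPM, was the highest of them in every library but PLL replicate A. miR-214-3p had only 134 counts over all libraries, and miR-145a-5p had 71, detected in 9 of 12 libraries. PLL replicate A stood apart from its group in the cartilage miRNA miR-140-3p (99795 CPM, against 5122 and 5400 in the other PLL libraries). In vesicle RNA, fewer vesicles holding a miRNA and less of it per vesicle cannot be told apart.

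miR-122-5p was high in all aFM libraries and in a single DZ library. It had 3175 counts in all and was detected in 12 of 12 libraries. DZ replicates A, B and C held 31, 76 and 1006 counts, or 1890, 4324 and 38119 CPM. aFM libraries held 14886, 15699 and 13507 CPM. NY libraries held 2586, 2421 and 3060 CPM. Every aFM library thus exceeded every NY and PLL library and DZ replicates A and B, and only DZ replicate C was higher. PLL libraries held 4167, 3943 and 7827 CPM, all above NY and all below aFM. Within DZ, miR-122-5p ranked 55th, 32nd and 9th among annotated miRNAs in replicates A, B and C, while in aFM it ranked 16th or 17th in each library. Group means were 14778 ± 20250 CPM in DZ, 14698 ± 1108 in aFM, 5312 ± 2180 in PLL and 2689 ± 332 in NY (SD, n = 3). The order of the means is therefore DZ, aFM, PLL and NY, but DZ cannot be placed in it, since its libraries run from the lowest to the highest of all 12. Replicate C was the highest library in DZ, NY and PLL and the lowest in aFM.

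**Figure D1:**
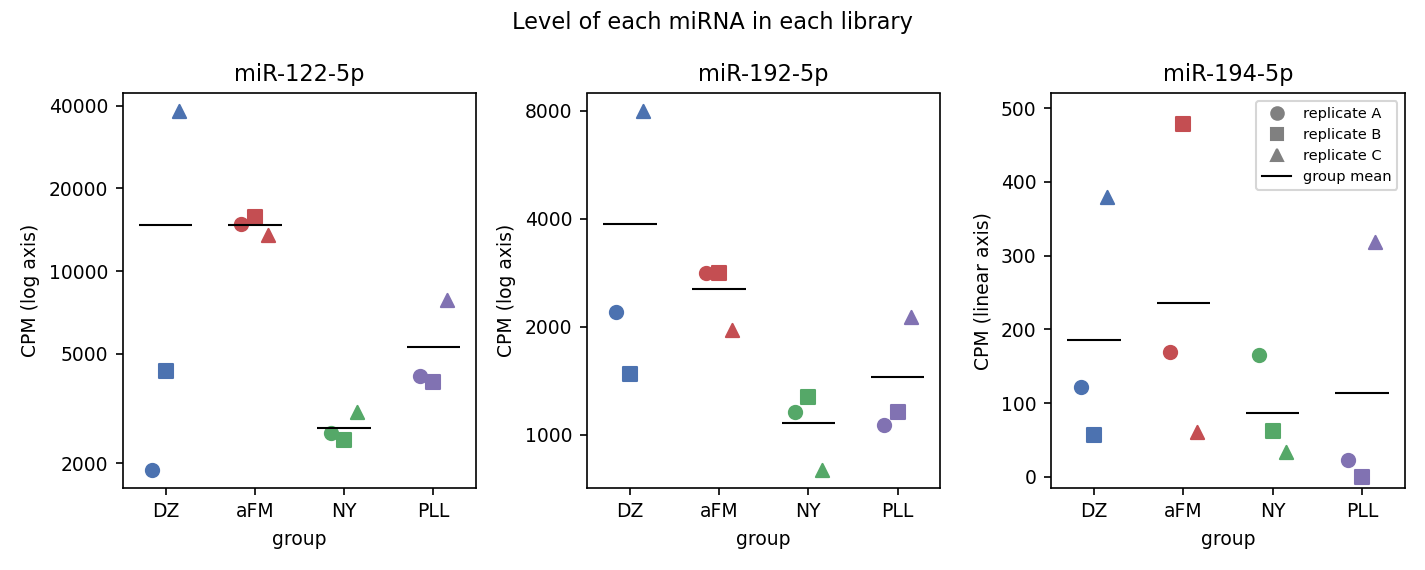
CPM of miR-122-5p, miR-192-5p (log axes) and miR-194-5p (linear axis) in each library of the 4 groups, with the marker shape giving the replicate letter and the line the group mean. DZ replicate C holds the highest miR-122-5p and miR-192-5p of all libraries, and the 3 aFM libraries lie between 13507 and 15699 CPM of miR-122-5p.

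With all libraries in 1 edgeR fit on the filtered miRNAs, no group difference of miR-122-5p passed the threshold. Tests were edgeR quasi-likelihood tests over 132 miRNAs with Benjamini-Hochberg adjustment, and a call is an adjusted p under 0.05. The joint test of any difference among groups called 12.1% of miRNAs tested and 0 of the 2 members tested, with an edgeR adjusted p = 0.0915 for miR-122-5p. NY against aFM had a log2 fold change of -2.45 ± 0.82 (SE), with edgeR adjusted p = 0.088 where 3.79% of miRNAs were called. The NY and aFM libraries did not overlap, which held for 19.7% of miRNAs in this direction. NY stood at -2.46 ± 0.82 against DZ (edgeR adjusted p = 0.246, 0.758% of miRNAs called), with overlapping libraries. PLL had a log2 fold change of -1.47 ± 0.79 against aFM (edgeR adjusted p = 0.207, 9.09% called) and -1.48 ± 0.79 against DZ (edgeR adjusted p = 0.225, 3.79% called). Its libraries did not overlap with those of aFM, as for 17.4% of miRNAs in that direction. PLL against NY gave 0.98 ± 0.79 (edgeR adjusted p = 0.442, 6.82% called), again without overlap, as for 16.7% of miRNAs in that direction. aFM against DZ gave -0.015 ± 0.77, with a 95% interval from -1.70 to 1.67 (edgeR adjusted p = 0.991, 18.9% called), so a difference of 2-fold either way lies within the interval.

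Before adjustment, edgeR gave a p under 0.05 for 2 of the 2 members tested in NY against DZ, beside 14.4% of all miRNAs tested, and in NY against aFM, beside 27.3%. It did so for 1, miR-192-5p, in PLL against DZ, beside 28%. Neither member was below that level in aFM against DZ (30.3% of miRNAs), PLL against aFM (32.6%) or PLL against NY (21.2%). With no filter on low counts, which tests 501 miRNAs, edgeR called both members in the joint test (7.58% called), as well as in NY (1.4%) and in PLL (3.39%) when each was set against DZ. When set against aFM, miR-122-5p alone was called, in NY (2.2%) and in PLL (2.99%). The unfiltered fit had infinite prior degrees of freedom, so its tests used no spread of each miRNA's own. The spread of miR-122-5p within DZ thus carried little weight in these calls.

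DZ replicate C set the size of the miR-122-5p comparisons with DZ, and the sign of those of aFM and PLL but not of NY. Without that library, DZ is represented by 1890 and 4324 CPM, and aFM had a log2 fold change of 2.26 ± 0.43 over DZ (edgeR adjusted p = 0.00881), with 10.3% of 146 miRNAs called. NY against DZ then stood at -0.27 ± 0.41 (edgeR adjusted p = 0.918) and PLL against DZ at 0.66 ± 0.41 (edgeR adjusted p = 0.313). miR-122-5p also passed as lower in NY than in aFM (-2.53 ± 0.37, edgeR adjusted p = 0.000689, 6.16% called) and lower in PLL than in aFM (-1.60 ± 0.36, edgeR adjusted p = 0.0137, 8.9% called), although neither comparison contains a DZ library. Their fold changes had moved little. The SE of NY against aFM was 0.82 with all libraries and 0.37 without DZ replicate C. The biological coefficient of variation estimated for miR-122-5p alone, over all groups, was 65.4% with DZ replicate C and 32.8% without it. That estimate describes the spread and did not itself enter the quasi-likelihood tests. The trended value for miRNAs of like abundance was 38.3% and 36.0%. The joint test passed as well (edgeR adjusted p = 0.000865, 14.4% called). Without DZ replicate A, which held the lowest level, miR-122-5p passed in NY against DZ (-3.04 ± 0.64, edgeR adjusted p = 0.0332, 1.39% called), NY against aFM (-2.53 ± 0.60, edgeR adjusted p = 0.033, 6.25% called) and the joint test (edgeR adjusted p = 0.0157, 16% called). The other tool, DESeq2, called miR-122-5p with all libraries in NY against DZ (adjusted p = 0.0283, 4.55% called) and NY against aFM (adjusted p = 0.0107, 11.4% called). A fit on NY and aFM alone called it too (edgeR adjusted p = 5.89e-08, 25% called), as did a fit on PLL and aFM alone (edgeR adjusted p = 0.025, 12.4% called). The lower level of PLL than aFM holds among annotated miRNAs only: with predicted loci in the library sizes the log2 fold change was 0.41 ± 1.00, where the median annotated miRNA stood at 2.13 against 0.31 in the fit given first. On that scale PLL against DZ was -0.49 and PLL against NY 2.29.

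**Figure D2:**
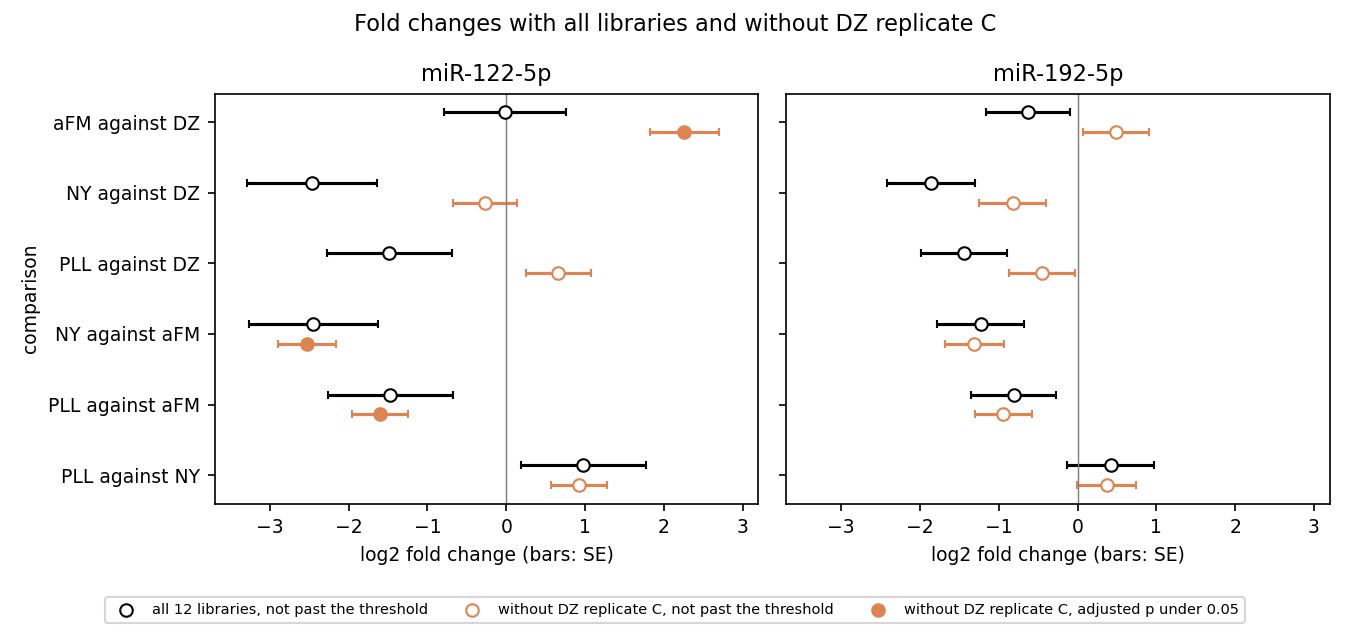
Log2 fold changes of miR-122-5p and miR-192-5p (x axis, bars show the SE) in the 6 pairwise comparisons, with all 12 libraries and without DZ replicate C, where filled points passed the threshold. The miR-122-5p difference of aFM from DZ moves from -0.015 to 2.26 when DZ replicate C is left out, while NY against aFM is -2.45 and -2.53.

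miR-192-5p, abundant in intestinal and renal epithelium, was also highest in DZ replicate C and lowest in NY. It had 741 counts over 12 libraries. DZ replicates A, B and C held 36, 26 and 210 counts, or 2195, 1479 and 7957 CPM. aFM libraries held 2825, 2831 and 1964 CPM, NY libraries 1160, 1272 and 798 CPM, and PLL libraries 1064, 1155 and 2132 CPM. DZ replicate C was again the highest library, and every NY library lay below every DZ and aFM library. Group means were 3877 ± 3551 CPM in DZ, 2540 ± 499 in aFM, 1450 ± 592 in PLL and 1077 ± 248 in NY (SD, n = 3). PLL overlapped with each of the other groups. Its replicate C lay between aFM replicates C and A and within the range of DZ. Its replicates A and B lay within the range of NY.

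In the same edgeR fit with all libraries no comparison of miR-192-5p passed. Against DZ the log2 fold change was -1.86 ± 0.56 in NY (edgeR adjusted p = 0.246), with rank 2 by p among 132 miRNAs and no overlap as for 6.06% in that direction. It was -1.44 ± 0.54 in PLL (edgeR adjusted p = 0.118) and -0.63 ± 0.53 in aFM (edgeR adjusted p = 0.598). NY against aFM gave -1.23 ± 0.55 (edgeR adjusted p = 0.168) without overlap, as for 19.7% of miRNAs in that direction. PLL gave -0.81 ± 0.54 against aFM (edgeR adjusted p = 0.306) and 0.42 ± 0.55 against NY (edgeR adjusted p = 0.622). The joint test gave edgeR adjusted p = 0.0905. Without DZ replicate C the comparison of NY with DZ shrank to -0.83 ± 0.42 (edgeR adjusted p = 0.452), PLL with DZ to -0.45 ± 0.42 (edgeR adjusted p = 0.519), and aFM with DZ became 0.49 ± 0.42 (edgeR adjusted p = 0.561). NY against aFM kept its size at -1.31 ± 0.37 and did not pass (edgeR adjusted p = 0.057). The joint test passed without DZ replicate A (edgeR adjusted p = 0.0491, 16% called) and without DZ replicate B (edgeR adjusted p = 0.0342, 13% called). It did not pass without DZ replicate C (edgeR adjusted p = 0.084, 14.4% called). DESeq2 called miR-192-5p with all libraries in NY against DZ (adjusted p = 0.0283, 4.55% called) and PLL against DZ (adjusted p = 0.0469, 14.4% called), and a fit on NY and aFM alone called it (edgeR adjusted p = 0.00186, 25% called). As for miR-122-5p, predicted loci in the library sizes turned PLL against aFM positive, to 1.08 ± 0.80. They also moved PLL against DZ to -0.28, NY against aFM to -0.56, aFM against DZ to -1.35 and PLL against NY to 1.64, none of them past the threshold by edgeR.

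miR-194-5p was close to the detection limit. It had 51 counts in all and did not pass the filter on low counts, so it is not among the 132 miRNAs tested. DZ replicates A, B and C held 2, 1 and 10 counts, and the highest level there was 379 CPM, in replicate C. aFM libraries held 4, 13 and 2 counts, NY libraries 5, 2 and 1, and PLL libraries 1, 0 and 10. The highest library of each group had 10, 13, 5 and 10 counts, and all groups overlapped. Mean levels were 236 ± 217 CPM in aFM and 186 ± 170 in DZ, and 114 ± 178 in PLL and 87.0 ± 69.7 in NY (SD, n = 3), so the spread within a group was about as large as its mean. Differences between groups were not detectable at this depth. With every miRNA that had a count tested (501), its lowest adjusted p was 0.648 by edgeR, in NY against aFM. It was also tested with a library left out, and did not pass. Without PLL replicate C, which leaves PLL with 1 and 0 counts, PLL stood at -4.03 ± 1.44 against aFM (edgeR adjusted p = 0.106). Against DZ it then stood at -3.82 ± 1.48 (edgeR adjusted p = 0.108).

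The partner arms and the miR-192 relative were almost absent. miR-122-3p, miR-192-3p and miR-215-3p had 0 counts in all libraries. miR-194-2-3p, the arm made with miR-192 on chromosome 19, had 8 counts, 5 in NY replicate A and 3 in aFM replicate B. miR-194-1-3p, made with miR-215 on chromosome 1, had 1 count, in PLL replicate C. miR-215-5p had 23 counts in 6 libraries: 4 in DZ replicate A, 4 and 3 in aFM replicates B and C, and 4 in each PLL library. It was not detected in any NY library nor in DZ replicate C, the library with 210 counts of miR-192-5p. The floor in that library, 3 counts, lies far below its count of miR-192-5p.

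The makeup of the 3 miRNAs does not depend on any scaling. Pooled over all libraries there were 4.28 counts of miR-122-5p for each of miR-192-5p. For each pooled count of miR-194-5p there were 14.5 of miR-192-5p, although miR-192 and miR-194-2 lie side by side. By library that second ratio ran from 5.92 in aFM replicate B to 47 in PLL replicate A. It rests on few counts of miR-194-5p, and PLL replicate B, with 0, has no such ratio. miR-122-5p took 84.3% ± 2.36 of the summed counts in aFM, 77.6% ± 1.59 in PLL, 69.7% ± 7.75 in NY and 66.9% ± 19.5 in DZ (SD, n = 3). In DZ replicates A, B and C its share was 44.9% (Wilson 95% interval 33.8 to 56.6), 73.8% (64.5 to 81.3) and 82.1% (79.8 to 84.1). These intervals cover counting error only. The ratio of miR-122-5p to miR-192-5p was 5.27, 5.55 and 6.88 in the aFM libraries and between 0.861 and 4.79 in all others. All aFM ratios thus exceeded that of DZ replicate C, the library with the highest level of both. In DZ replicate A miR-192-5p outnumbered miR-122-5p, which occurred in no other library.

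**Figure D3:**
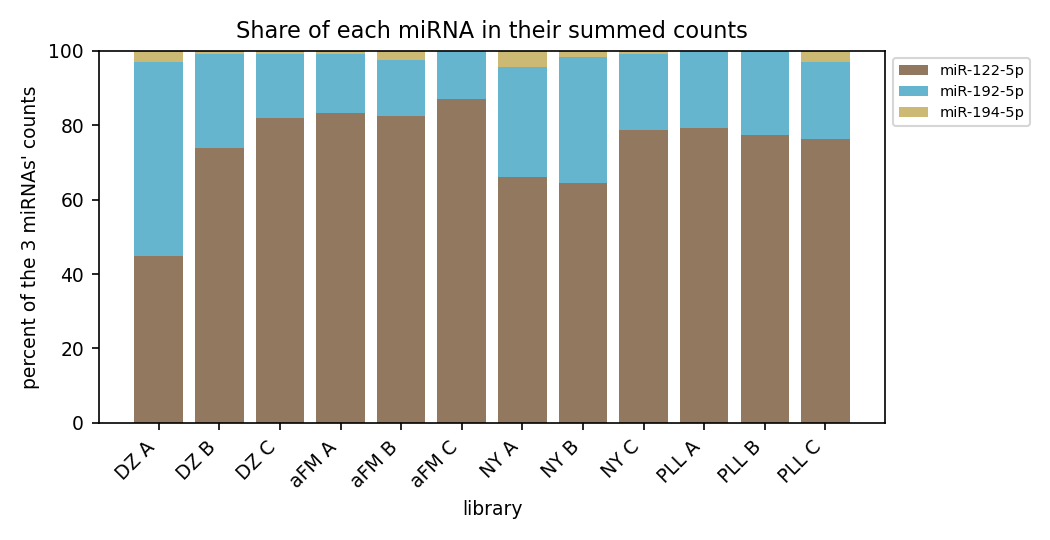
Share of miR-122-5p, miR-192-5p and miR-194-5p in their summed counts (y axis, percent) in each of the 12 libraries (x axis). miR-122-5p takes 44.9% in DZ replicate A and at least 82.6% in each aFM library.

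Across the 12 libraries, ranked by Pearson r, the miRNA whose log2 CPM was most like that of miR-122-5p was miR-192-5p (r = 0.82, Spearman rho = 0.62), and the reverse held by r. By rho, miR-423-5p was more like miR-192-5p than miR-122-5p was. Without DZ replicate C and aFM replicate B, the libraries farthest from the median of miR-122-5p, r was 0.58 over 10 libraries and miR-192-5p ranked 12th. Without DZ replicate C and NY replicate C, the farthest for miR-192-5p, r was 0.67 and miR-122-5p ranked 4th. Next after miR-192-5p in likeness to miR-122-5p came miR-224-5p (r = 0.72, rho = 0.62) and miR-151-3p (r = 0.59, rho = 0.52), with r = 0.66 and 0.72 over the 10 libraries. Next to miR-122-5p in likeness to miR-192-5p came miR-423-5p (r = 0.75, rho = 0.83) and the epithelial miR-200b-3p (r = 0.50, rho = 0.43). Over the 10 libraries miR-423-5p stayed at r = 0.76 and rank 2, while miR-200b-3p was at r = 0.25 and rank 28. These are descriptions over libraries that share group membership and depth.

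**Figure D4:**
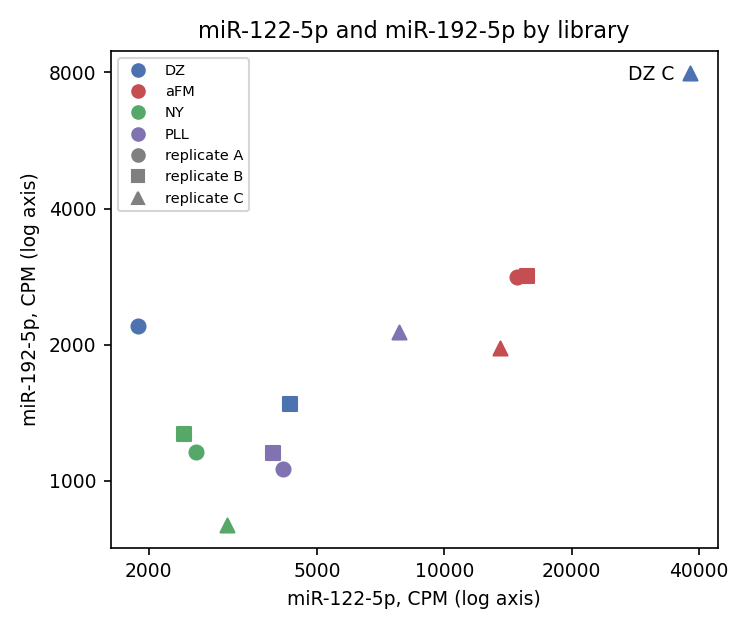
CPM of miR-122-5p (x axis) against miR-192-5p (y axis), both on log axes, with 1 point per library, colour for the group and shape for the replicate letter. DZ replicate C stands at 38119 and 7957 CPM, and the other libraries reach at most 15699 and 2831 CPM.

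In DZ replicate C the 2 members stood out within their group more than nearly all other miRNAs. Set against the mean log2 CPM of DZ replicates A and B, miR-122-5p ranked 1st of 132 with a difference of 3.70, and miR-192-5p ranked 5th with 2.10, where the median miRNA stood at -0.091. Between them came the muscle miRNA miR-206-3p (2.95, 17 counts), miR-1198-5p (2.39, 11 counts) and miR-455-5p (2.24, 14 counts), all with few counts. The 1006 counts of miR-122-5p were 4.06% of the annotated counts of that library, against 0.169% and 0.432% in DZ replicates A and B.

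The other liver and gut miRNAs listed, most of them opposite arms, were scarce in every library, those high in miR-122-5p included. A liver or gut source was not tested. The 8 listed (miR-802 arms, miR-375-3p, miR-215-5p and the opposite arms) had counts for 4 of 8, 0 of them tested, and summed to between 90.7 and 257 CPM in aFM libraries, 90.6 and 159 in PLL, 0 and 366 in DZ, and 0 and 166 in NY. Both arms of miR-802, a hepatocyte and intestinal miRNA, were at 0 in all libraries, and DZ replicate C held 1 count of the whole list. The 7 epithelial miRNAs (miR-200 family, miR-203 and miR-205) summed to 732, 2219 and 1213 CPM in DZ replicates A, B and C and 295 to 907 in aFM. The epithelial list had 1 member tested, miR-200b-3p, which passed in no comparison by edgeR and had an unadjusted p under 0.05 only in NY against DZ. Its log2 fold change in NY against DZ was -2.06 ± 0.80 (edgeR adjusted p = 0.246).

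Of the 5 listed erythroid miRNAs, carried by red cells and plasma, miR-451a and miR-486a-5p were abundant in all libraries, with 8883 and 17927 counts. miR-144-3p, miR-144-5p and miR-16-5p had only 29, 18 and 68 counts over all libraries, so the sum reflects the first 2. Within DZ the sum was lowest in replicate C, where miR-122-5p was highest. Within NY the sum was highest in replicate B and lowest in replicate C, and miR-122-5p the reverse. Within PLL the sum was highest in replicate B, where miR-122-5p was lowest, and lowest in replicate A. Within aFM both were highest in replicate B and lowest in replicate C, with miR-122-5p spanning only 13507 to 15699 CPM. The 5 erythroid miRNAs (miR-451a, miR-486a-5p, miR-144 arms and miR-16-5p) summed to 137122, 119775 and 61422 CPM in DZ replicates A, B and C. In aFM they summed to 50942, 81952 and 48107 CPM. NY libraries held 63686 to 129684 CPM of them, and PLL libraries 47350 to 67587. Of 2 tested, 1 was lower in aFM than in DZ, miR-486a-5p, by edgeR, where 18.9% of all miRNAs tested were called in either direction. The median of the erythroid list was -0.69 in aFM against DZ, beside -0.14 for all miRNAs tested. The 4 leukocyte miRNAs summed to 3145 to 3719 CPM in DZ and 1571 to 2427 in aFM. Most of that sum was miR-142a-5p, with means of 3239 CPM in DZ and 1719 in aFM. It was the 1 of 1 tested, lower in aFM than in DZ by edgeR, beside the same 18.9%. miR-142a-3p (means 0 in DZ, 80.7 in aFM) and miR-150-5p (64.6 and 141) went the other way. miR-223-3p had 104 and 52.6, and these 3 were near the floor. Of the 6 mesenchymal miRNAs, all tested, 1 was lower in aFM than in DZ (miR-145a-5p), a share near those 18.9%. In PLL 1, miR-143-3p, was lower than in DZ (3.79% of all miRNAs called), aFM (9.09%) and NY (6.82%). Their median was -0.10 in aFM against DZ. The part of these cell types in the levels of miR-122-5p and miR-192-5p was not tested.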

How the data were processed

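The deposited file gives raw whole-number counts per mature miRNA or predicted locus, not normalized, as its values show. Per the submitters' processing notes, FastQC, STAR, StringTie and DESeq2 were used with build mm39. Which program called miRNAs, which miRBase release it used and what was filtered: not given in the sources used here. Of 3509 rows, 1978 carry mouse miRNA names. The other 1531, predicted loci, held 39.3% to 89.7% of a library's counts and stayed out of library sizes and tests. The columns matched the sample titles.

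Rows were filtered with filterByExpr (minimum count 10, minimum total 15), leaving 132 miRNAs, which held 98.0% or more of the annotated counts in every library. All 12 libraries entered 1 edgeR 4.0.16 quasi-likelihood fit (limma 3.58.1, R 4.3.3) with TMM factors and a term per group, tested two-sided. The SE is the log2 fold change divided by the square root of F. Likeness used log2 CPM with a prior count of 2. With a library left out the filter asked for fewer libraries, so 143 to 147 miRNAs were tested. Alternatives included DESeq2 1.42.0. Scripts were tested on simulated data.

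miRNAs were named by rule: the members, their other arms and miR-215, the 3 most alike, the 5 most raised in the library where a member peaked, and 5 marker lists. Members and lists were chosen with earlier results of these data known. All replicate pairs differed by more than sampling noise. Deviations of same-letter libraries from their group means had correlations of 0.13 to 0.34 for NY with DZ, all above 0.1, which held for no other pair of groups. The labels state no pairing.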

Additional observations from a re-analysis of the deposited data

How the results depend on the processing

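Each of 12 fold changes was recomputed under 21 alternatives, 12 of which left out a library. Of the 252 values, 225 kept their direction and side of the threshold, 17 newly passed with the same sign and 10 changed sign, 1 of which also passed, so 18 passed in all. In the edgeR fit that the report gives first, 0 members passed in any test. Without the filter on low counts (501 miRNAs), 2 passed in the joint test, 2 in NY against DZ, 2 in PLL against DZ, 1 in NY against aFM and 1 in PLL against aFM. In that fit the tests no longer used a spread of each miRNA's own, since the prior degrees of freedom were infinite. DESeq2 called 2, 1 and 1 in NY against DZ, PLL against DZ and NY against aFM. Fits on 2 groups only called 2 in NY against aFM and 1 in PLL against aFM. With a library left out the counts were 0 to 2 in the joint test, 0 to 1 in aFM against DZ, NY against DZ, NY against aFM and PLL against aFM, and 0 in the rest.

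The sign changed for miR-122-5p in aFM against DZ, where the value was near 0, with the replicate block (0.72) and with the 2 groups only (0.046), and leaving out a library gave -0.52 to 2.26. For miR-192-5p in aFM against DZ leaving out a library gave -0.99 to 0.49, for miR-122-5p in PLL against DZ -2.11 to 0.66 and for miR-192-5p in PLL against NY -0.055 to 0.61, negative without PLL replicate C. With predicted loci in the library sizes PLL against aFM gave 0.41 for miR-122-5p and 1.08 for miR-192-5p, the other moved values stand in the report, and aFM against DZ gave -0.90 for miR-122-5p. RLE factors, upper quartile factors, library totals and merging of identical rows changed no call or sign. With the replicate block, NY against DZ gave -1.82 for miR-122-5p and -1.62 for miR-192-5p (edgeR adjusted p = 0.313 and 0.282), and the block changed no call. It moved PLL against DZ to -0.95 for miR-122-5p and aFM against DZ to -0.39 for miR-192-5p. Without PLL replicate C, PLL against NY was 0.49 for miR-122-5p and PLL against aFM was -1.36 for miR-192-5p. Depth limits miR-194-5p, whose libraries held 0 to 13 counts.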
